A study of Danio rerio with 4 samples.

Results

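Integrins are the transmembrane receptors with which cells hold on to the extracellular matrix and to each other. Their genes were followed here in coronary endothelial cells, the cells lining the vessels of the heart, taken from zebrafish hearts after a freezing injury. Members were the rows of the gene table whose symbol begins with itga or itgb, which gave 34 of 20306 rows. Of these, 32 encode an alpha or a beta subunit (21 alpha, 11 beta), and the other 2, itgb1bp1 and itgbl1, encode proteins that are not subunits. A level of at least 10 normalized counts in at least 2 of the 4 libraries was reached by 31 of the 34 rows and by 29 of the 32 subunits.

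Bulk RNA sequencing compared 2 populations sorted from ventricles at 7 days after cryoinjury, with 2 libraries each. All cells were wild type apart from their reporters, all came from injured hearts, and all were sorted as positive for the red reporter -0.8flt1:RFP. They were then split by the yellow reporter cxcr4a:YFP into a positive and a negative gate, so that the groups are defined by reporter brightness and there is no uninjured group. The table heads its columns Regenerating and Non-Regenerating. The labels do not say which gate bears which heading, and Regenerating was taken as the cxcr4a:YFP-positive gate from knowledge of the reporter. Nothing in the labels says whether replicates came from separate fish, so that the p-values rest on a spread between libraries that could be technical alone.

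Each integrin is a pair of 1 alpha and 1 beta subunit. The pairing sets the ligand: some pairs bind collagen, some laminin, some the arginine-glycine-aspartate motif (RGD) of fibronectin and vitronectin, and others bind receptors on neighbouring cells. Inside the cell, talin and kindlin proteins bind the beta tail and switch the pair to its active shape. In endothelium, pairs with the beta subunit 1 anchor vessels to their basement membrane, whereas pairs with beta subunit 2 or 7 belong to leukocytes. These roles were worked out mainly in mammals, and the roles given below are those of the mammalian proteins unless zebrafish is named.

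The normalized counts summed to between 10481747 and 10761712 per library. All 29 endothelial markers found were above 0 in every library, and cdh5, the vascular endothelial cadherin, read 11674 and 11643 in Regenerating versus 11920 and 12629 in Non-Regenerating. The endothelial sums were 127007 and 136741 in Regenerating versus 143131 and 152537. Of these 29 markers, 11 were lower in Regenerating with no overlap between the groups (37.9%, where 21.5% of all tested genes stood so) and 1 was higher (3.45%, where 21.8% did). Markers of other cells were also present. The 24 cardiomyocyte markers summed to 68425 and 23999 in Regenerating replicates 1 and 2 and to 10056 and 5216 in Non-Regenerating. For 30 macrophage and monocyte markers the sums were 15058 and 15113 against 14561 and 9222, for 14 neutrophil markers 9462 and 9152 against 7255 and 6245, and for 16 lymphoid markers 2072 and 2852 against 680 and 286. Most of the neutrophil sum came from adam8a, srgn and nccrp1, with adam8a at 3990 and 3464 against 2576 and 2068. Of the others, chosen after their values were seen, lect2l read 471 and 718 against 33 and 3, and mpx 1 and 3 against 9 and 4. Most of the lymphoid sum came from the chemokine receptor gene ccr9a, at 1456 and 2378 against 213 and 51. The lymphoid list also holds cd3eap, which encodes an RNA polymerase subunit and is no lymphoid marker. Without both genes, a choice made after the values were seen, the 14 others summed to 519 and 375 against 347 and 91. The 27 epicardial and fibroblast markers summed to 48176 and 49462 against 66078 and 57708, and 20 mural cell markers to 21066 and 16316 against 15197 and 10016. No marker in these lists was at 0 in all 4 libraries, but neither was any of the 20306 rows, so this says nothing about cell types. Listed names matched by no row or by several rows were left out. In such bulk samples, fewer cells of a type and less RNA per cell cannot be told apart.

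Among the subunit genes with high counts, itga5, itga1, itgb2 and itgb1b had near equal values in both populations. Others, itga6b, itgb1a, itgav and itgb4, varied more between replicates, and their 95% intervals were too wide to call them equal. The clearest differences were in alpha subunits. The clearest were itgae.2, an alpha E subunit, with 11.6-fold higher values in Regenerating, and itga4, the alpha 4 subunit, with 2.15-fold higher values. Neither passed adjustment over all genes: with limma and Benjamini-Hochberg adjustment at 0.05, 0 of the 29 tested subunits were called, and 0.00591% of all 16928 tested genes were. At an unadjusted p under 0.05, 4 of the 29 subunits were higher in Regenerating (itgae.2, itga4, itga2.3 and itgb1b.1) and 0 were lower. Over all tested genes 7.62% were higher and 5.19% lower by that rule, against 13.8% and 0% of the subunits. This count is a description, and itgb1b.1 passed the low-value limit on its Regenerating values alone. The count also changed when some single libraries were left out, as did the counts over all tested genes.

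The groups did not overlap for 9 of the 29 tested subunits, all of them higher in Regenerating, or 31% where 21.8% of all tested genes stood so, and for 0 subunits in the other direction, where 21.5% of all genes stood so. Of these 9, itgb1b.1 and itgb7 passed the low-value limit on their Regenerating values alone. Both thus entered the test through the same values that place them higher. The median log2 fold change was 0.28 over the 29 subunits and 0 over all tested genes. The subunits' median had a spread between replicates of 0.238, and leaving out 1 Non-Regenerating library gave 0.02 (replicate 1) or 0.50 (replicate 2). At least 2-fold higher fitted values in Regenerating were found for 7 subunits, itgb1b.1 and itgb7 among them, and 0 were at least 2-fold lower, where 9.77% and 5.55% of all tested genes were.

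**Figure D1:**
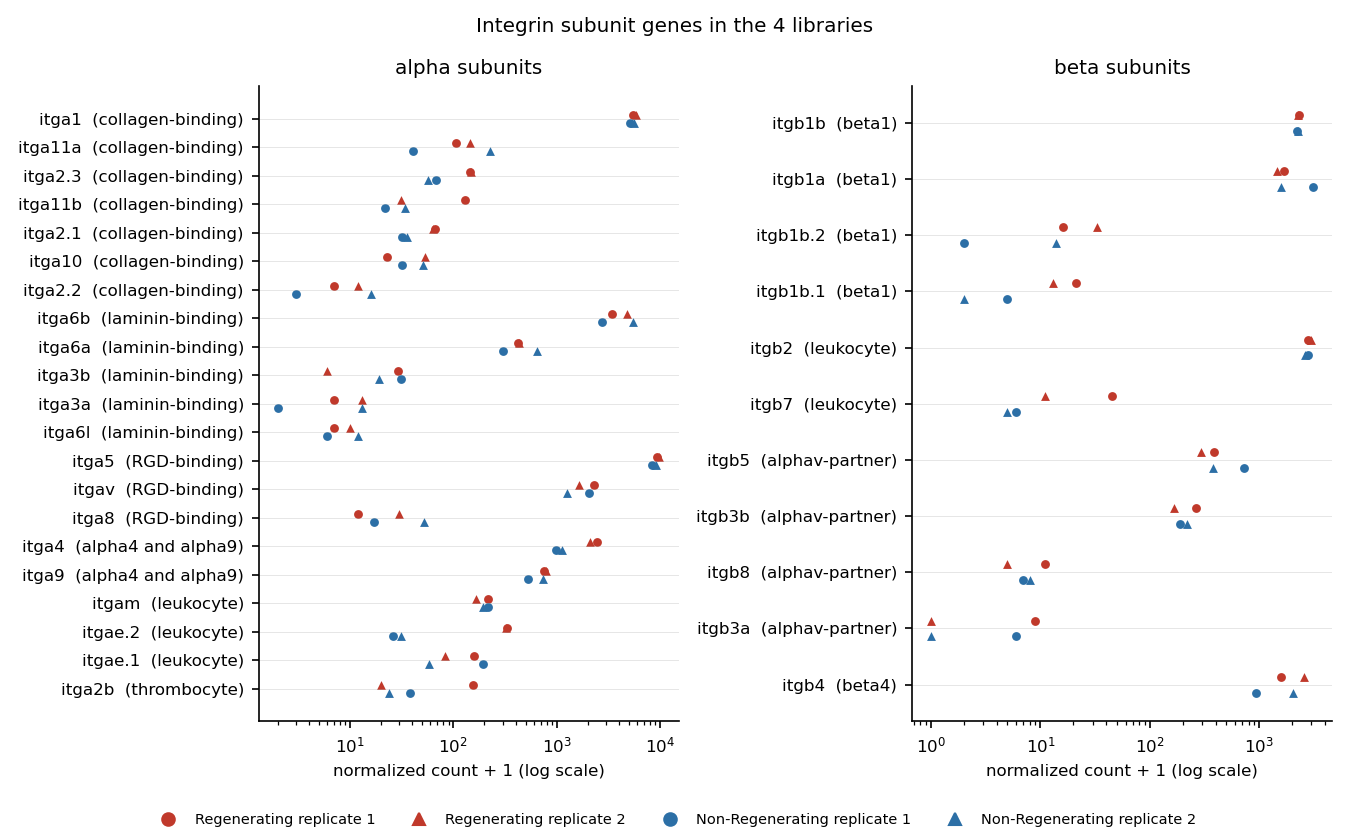
Normalized count plus 1, on a log axis, of the 21 alpha and 11 beta subunit genes in each of the 4 libraries, grouped by the kind of ligand or partner. Points of both colours lie close together for itga5, itga1, itgb2 and itgb1b, and are separate for itgae.2 and itga4. Levels of different genes also depend on transcript length and are not comparable between rows.

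**Figure D2:**
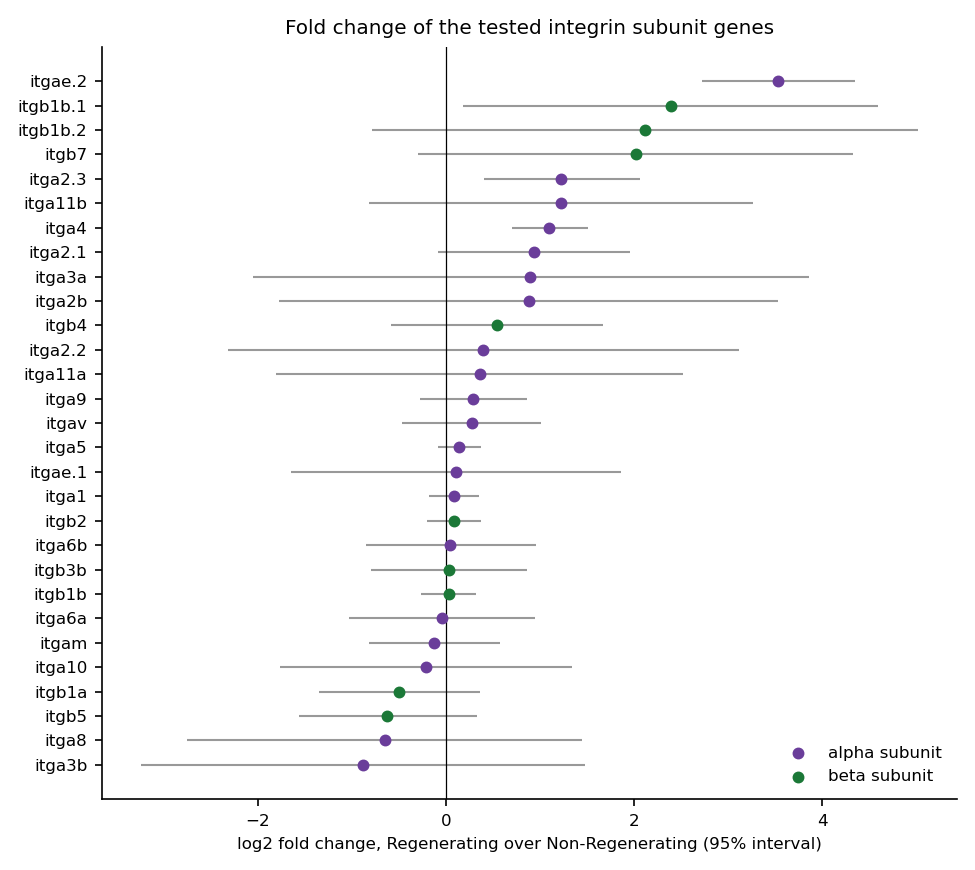
Log2 fold change of the 29 tested subunits, Regenerating over Non-Regenerating, from the limma fit on log2(normalized count + 1), with 95% intervals as bars. The intervals of itgae.2 (2.72 to 4.35), itga4 (0.70 to 1.51), itga2.3 and itgb1b.1 lie above 0, before any adjustment for the number of genes. Of these, itgb1b.1 passed the low-value limit on its Regenerating values alone.

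Among the integrins of leukocytes, the alpha E gene itgae.2 and the alpha 4 gene itga4 read higher in both Regenerating libraries. The other alpha E gene, itgae.1, overlapped between the groups, and beta 2 and alpha M were near equal. Alpha E pairs with beta 7 and binds E-cadherin, and in mammals it marks lymphocytes and dendritic cells within epithelia. The gene itgae.2 (ENSDARG00000057787, chromosome 15, 17177635 to 17190540, minus strand, danRer11) read 330 and 326 normalized counts in Regenerating and 25 and 30 in Non-Regenerating. Both Regenerating libraries were thus more than an order of magnitude above both others, and replicates were nearly equal. The means were 328 ± 2.83 and 27.5 ± 3.54 (SD, n = 2 each). The log2 fold change was 3.53 (SE 0.32) and the limma adjusted p was 0.102. Leaving out any 1 library gave a log2 fold change between 3.41 and 3.66.

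The adjacent copy did not show this. The gene itgae.1, 5986 bases away on the same strand of chromosome 15, read 156 and 82 in Regenerating versus 192 and 57 in Non-Regenerating. Replicate 1 was the higher library in each group, and the groups overlapped. Its log2 fold change was 0.11, with a 95% interval of -1.64 to 1.86, which does not exclude a several-fold difference in either direction. As tandem copies these genes may share reads, and how such reads were counted is not given in the sources used here, so their separate values are uncertain.

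Alpha 4 pairs with beta 1 or beta 7 and binds the cell surface protein Vcam1 and fibronectin. It is known from lymphocytes and monocytes, and in the mouse embryo from the epicardium. The gene itga4 (ENSDARG00000103056, chromosome 9, 44034790 to 44088067, plus strand) read 2462 and 2095 in Regenerating versus 981 and 1136 in Non-Regenerating. No Non-Regenerating library came near the lower Regenerating one. With means of 2279 ± 260 and 1059 ± 110 (SD, n = 2 each), its log2 fold change was 1.1 (SE 0.159, limma adjusted p = 0.164), and between 0.99 and 1.22 with any 1 library left out. Its relative itga9, whose product binds tenascin and osteopontin, read 749 and 782 against 529 and 736, with a log2 fold change of 0.29 and a 95% interval of -0.27 to 0.86.

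Beta 7, which pairs with alpha 4 or alpha E, was scarce. The gene itgb7 read 44 and 10 in Regenerating versus 5 and 4 in Non-Regenerating. Regenerating replicate 1 alone was well above the rest, and the log2 fold change was 2.02 (limma adjusted p = 0.451), or 1.18 with a pseudocount of 10. This gene passed the low-value limit on its Regenerating values alone.

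Beta 2, which is the common partner of the leukocyte integrins and is needed for leukocytes to cross vessel walls, was abundant in every library. The gene itgb2 (ENSDARG00000016939, chromosome 9, 44961138 to 44983666) read 2785 and 2997 in Regenerating versus 2802 and 2636 in Non-Regenerating. The groups overlapped, and the log2 fold change was 0.09 with a 95% interval of -0.20 to 0.38. Alpha M, its partner on macrophages and neutrophils, was likewise near equal. The gene itgam read 215 and 164 against 214 and 195, with a log2 fold change of -0.12 and an interval of -0.82 to 0.58.

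Other genes of blood cells did not all follow itgb2. The phosphatase gene ptprc, carried by all leukocytes, read 586 and 680 in Regenerating versus 191 and 64 in Non-Regenerating. Of the genes of the B-cell receptor, cd79a read 57 and 43 in Regenerating versus 9 and 15, and cd79b 50 and 36 versus 0 and 0. The groups did not overlap, with higher values in Regenerating, for 8 of 12 tested lymphoid markers, 12 of 28 macrophage and monocyte markers and 6 of 12 neutrophil markers (66.7%, 42.9% and 50%, where 21.8% of all tested genes stood so). In each of these lists 1 gene stood in the other direction, where 21.5% of all tested genes did. In the lymphoid list this was cd3eap, at 97 and 99 in Regenerating versus 120 and 144. It is no lymphoid marker but is counted among the 12. Among the macrophage and monocyte markers the gene in that direction was mpeg1.2, at 306 and 326 in Regenerating versus 1584 and 473. The listed lymphoid marker btk overlapped between the groups, at 54 and 49 versus 185 and 27. Of the 12 lymphoid markers, 4, cd79b among them, passed the low-value limit on their Regenerating values alone. All 4 are among the 8 that stood higher, so they entered the test through the same values that place them there. The genes named here from these lists (ptprc, cd79a, cd79b, mpeg1.2 and btk) were chosen after their values were seen. The part of these cells in the values of itgae.2, itga4 and itgb7 was not tested.

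**Figure D3:**
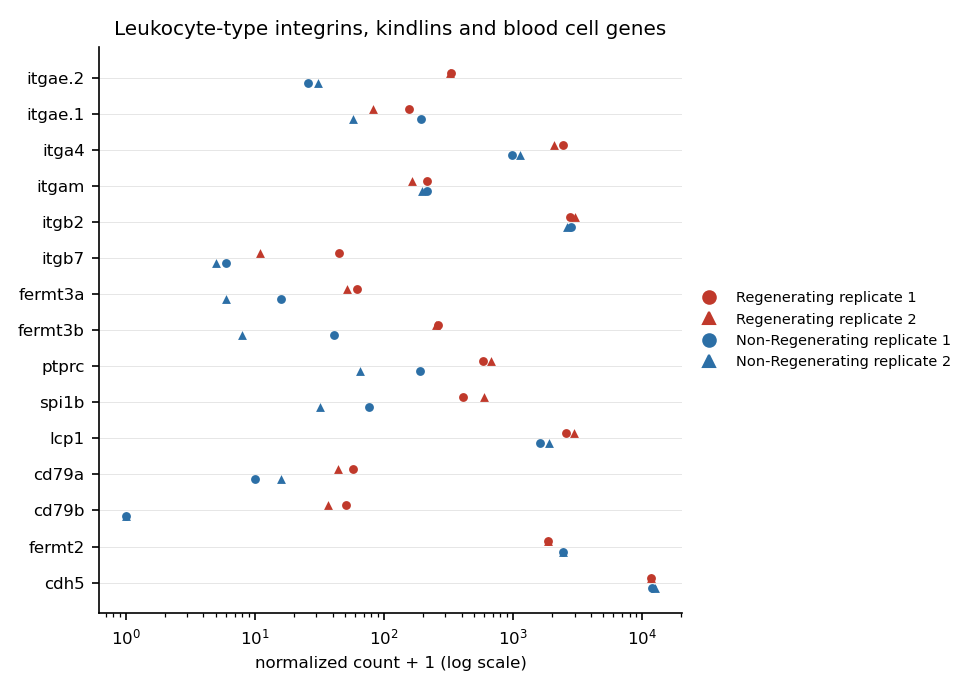
Normalized count plus 1, on a log axis, in each of the 4 libraries for leukocyte-type integrin genes, kindlin genes (fermt), blood cell markers and the endothelial gene cdh5. The Regenerating points of itgae.2, at 330 and 326, stand apart from the Non-Regenerating points at 25 and 30, as those of ptprc, spi1b and fermt3b also do, whereas points of itgb2, itgam and cdh5 coincide. All blood cell markers shown read higher in Regenerating. Others in their lists did not, such as mpeg1.2 at 306 and 326 against 1584 and 473, which is not shown.

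Of the collagen-binding alpha subunits, alpha 1 was near equal in both populations and 2 of the alpha 2 copies read higher in Regenerating. Alpha 1, a collagen and laminin receptor with beta 1 in vessel walls, is encoded by itga1 (ENSDARG00000074316, chromosome 10, 8730988 to 8841038), which read 5509 and 5892 in Regenerating versus 5114 and 5638 in Non-Regenerating. The groups overlapped, and the 95% interval of the log2 fold change of 0.09 ran from -0.18 to 0.35. The alpha 2 copies follow itga1 on the same strand in the order itga2.1, itga2.3 and itga2.2, with gaps of 5994, 11262 and 1563 bases.

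The gene itga2.3 (ENSDARG00000086838) read 143 and 148 in Regenerating versus 67 and 56 in Non-Regenerating. Its neighbour itga2.1 (ENSDARG00000069390) read 65 and 63 against 31 and 35. In both genes each Regenerating library was close to the other and above both Non-Regenerating libraries. The log2 fold changes were 1.23 (SE 0.322, limma adjusted p = 0.242) for itga2.3 and 0.94 (SE 0.4, adjusted p = 0.433) for itga2.1. The unadjusted p of itga2.3 missed 0.05 when either Regenerating library was left out. The third copy, itga2.2, read only 6 and 11 against 2 and 15. Reads may be shared among these copies.

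Alpha 10 and alpha 11 bind fibrillar collagen on cartilage cells and fibroblasts, and their values varied more between replicates than between groups. The gene itga11a read 105 and 145 in Regenerating versus 40 and 228 in Non-Regenerating. Its paralogue itga11b read 130 and 30 against 21 and 33, so that Regenerating replicate 1 alone was high. The gene itga10 read 22 and 52 against 31 and 50, and it overlaps polr3c on the opposite strand, which read between 99 and 131. The strand setting of the counting is not given in the sources used here, so reads of these overlapping genes cannot be told apart.

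The alpha subunits that bind RGD included the gene with the highest counts of the family, which also depend on transcript length. With beta 1, alpha 5 forms the main fibronectin receptor of blood vessels. Its gene itga5 (ENSDARG00000006353, chromosome 23, 33447625 to 33558161) read 9396 and 9875 in Regenerating versus 8391 and 9059 in Non-Regenerating. The groups did not overlap, but the gap was small, at 1.1-fold, and the log2 fold change of 0.14 (limma adjusted p = 0.583) had a 95% interval of -0.08 to 0.37.

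Alpha V pairs with several beta subunits, binds vitronectin and fibronectin, and can release active TGF-beta from its latent form. The gene itgav read 2276 and 1650 in Regenerating versus 2032 and 1260 in Non-Regenerating. Replicate 1 was higher than replicate 2 in each group, and the groups overlapped. Its log2 fold change of 0.28 became -0.07 without Non-Regenerating replicate 2. Alpha 8, which binds nephronectin on smooth muscle and mesenchymal cells, was scarce, with itga8 at 11 and 29 against 16 and 51.

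The beta partners of alpha V overlapped between the groups. The gene itgb5, a vitronectin receptor subunit, read 388 and 296 in Regenerating versus 721 and 376 in Non-Regenerating. Non-Regenerating replicate 1 alone was high, and the log2 fold change of -0.62 (limma adjusted p = 0.575) was -0.15 without it. Beta 3 serves in angiogenic endothelium with alpha V and on platelets with alpha IIb. Its gene itgb3b read 261 and 165 against 188 and 219, with a log2 fold change of 0.03 and a 95% interval of -0.79 to 0.86. Its paralogue itgb3a read 8 and 0 against 5 and 0, and itgb8, an activator of latent TGF-beta, 10 and 4 against 6 and 7. Both were below the limit for testing.

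The laminin-binding subunits overlapped between the groups, and 2 of them, which in epithelia are partners in hemidesmosomes, varied widely between replicates. Alpha 6 pairs with beta 1 or beta 4. The gene itga6b (ENSDARG00000069946, chromosome 1, 31019165 to 31064706) read 3411 and 4751 in Regenerating versus 2761 and 5440 in Non-Regenerating. The gene itgb4 (ENSDARG00000028507, chromosome 8, 13106760 to 13159587) read 1580 and 2587 against 933 and 2059. In each group and for each gene the library numbered 2 was the higher one, by a log2 of 0.48 and 0.98 for itga6b and of 0.71 and 1.14 for itgb4. Between groups the log2 fold change was 0.05 for itga6b (95% interval -0.85 to 0.96) and 0.54 for itgb4 (95% interval -0.58 to 1.67), the latter -0.03 without Non-Regenerating replicate 1.

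The paralogue itga6a read 420 and 435 in Regenerating versus 302 and 640 in Non-Regenerating, with Non-Regenerating libraries on either side of the others. Alpha 3, the receptor for laminins of epithelial basement membranes, was scarce, with itga3b at 28 and 5 against 30 and 18 and itga3a at 6 and 12 against 1 and 12. The third alpha 6 gene, itga6l, read between 5 and 11 and was not tested. In Regenerating 7 of the 29 tested subunits, and in Non-Regenerating 9, differed at least 2-fold between replicates. Apart from itgb4 and itga6a in Non-Regenerating, these were genes with a mean over the 4 libraries of at most 130.

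**Figure D4:**
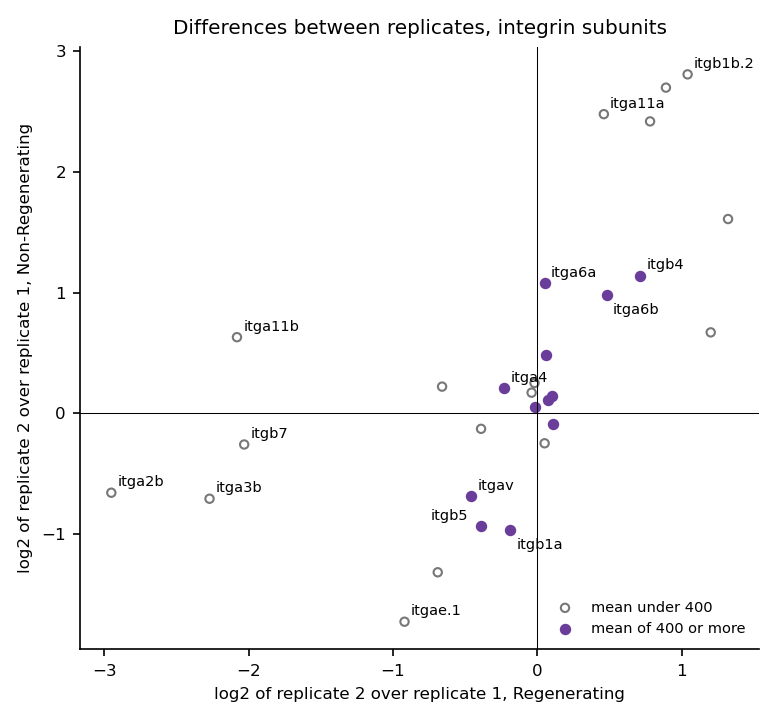
Log2 of replicate 2 over replicate 1 for the 29 tested subunits, in Regenerating on the horizontal axis and in Non-Regenerating on the vertical axis, with filled points for genes whose mean over the 4 libraries was at least 400. The points of itga6b and itgb4 lie to the upper right, those of itgav, itgb5 and itgb1a to the lower left, and itga4 and itgb1b near the centre.

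Beta 1 is the partner of most alpha subunits described here. The gene itgb1b (ENSDARG00000104484, chromosome 2, 43577294 to 43583896) had the smallest differences between replicates of the 29 tested subunits, at 2294 and 2263 in Regenerating versus 2197 and 2277 in Non-Regenerating. The groups overlapped, and the 95% interval of its log2 fold change of 0.03 ran from -0.26 to 0.32. The second beta 1 gene, itgb1a (ENSDARG00000071863, chromosome 24, 1110138 to 1151483), read 1678 and 1467 against 3100 and 1579. Non-Regenerating replicate 1 alone was high, and the log2 fold change of -0.50 (limma adjusted p = 0.622) was -0.01 without it. Further beta 1 copies next to itgb1b were scarce and higher in Regenerating, with itgb1b.1 at 20 and 12 against 4 and 1 and itgb1b.2 at 15 and 32 against 1 and 13. The log2 fold change of itgb1b.1 was 2.39 (SE 0.863, limma adjusted p = 0.363), and 1.05 with a pseudocount of 10. This gene passed the low-value limit on its Regenerating values alone, and its unadjusted limma p of 0.0389 was 0.0656 with quantile scaling. For itgb1b.2 the log2 fold change was 2.12 with a 95% interval of -0.78 to 5.02, and 0.71 without Non-Regenerating replicate 1. Reads may be shared among these copies, so their values are uncertain.

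Alpha IIb is the fibrinogen receptor subunit of platelets and of zebrafish thrombocytes. Its gene itga2b read 154 and 19 in Regenerating versus 37 and 23 in Non-Regenerating. Only Regenerating replicate 1 was high, and the log2 fold change of 0.88 (limma adjusted p = 0.803) became -0.59 without it. The 11 other thrombocyte and erythrocyte markers summed to 853 and 827 in Regenerating versus 1840 and 1803 in Non-Regenerating. Most of that sum was thbs1b, a thrombospondin gene that is also among the listed ligands, at 779 and 758 against 954 and 1721. A coagulation factor XIII gene, f13a1a.1, read 802 in Non-Regenerating replicate 1 and 5, 17 and 11 in the others. Without these genes, a choice made after the values were seen, the remaining 9 summed to 69 and 52 against 84 and 71. Among them mpl, the thrombopoietin receptor gene, read 12 and 6 against 1 and 1 and was below the limit for testing. In the opposite order, hbaa1 read 2 and 6 against 10 and 17, and alas2 read 0 and 12 against 14 and 15. The genes mpl, hbaa1 and alas2 were chosen after their values were seen. The same library, Regenerating replicate 1, also had the highest cardiomyocyte sum and the highest values of itga11b and itgb7. The part of other cells in these values was not tested.

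The 2 rows that are not subunits differed in direction. The gene itgbl1 encodes a secreted protein that resembles the beta stalk. It read 64 and 114 in Regenerating versus 42 and 28 in Non-Regenerating, without overlap (log2 fold change 1.29, SE 0.489, limma adjusted p = 0.377). The gene itgb1bp1 encodes a cytoplasmic protein that binds the beta 1 tail and competes with talin. It read 255 and 287 against 351 and 297 (log2 fold change -0.25, SE 0.23, adjusted p = 0.728).

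Genes that switch integrins on and link them to actin included kindlin genes that read in opposite orders. A list of 90 names matched 81 genes, of which 78 were tested. With limma, 0 were called after adjustment over all genes. At an unadjusted p under 0.05, 10 were higher and 4 lower in Regenerating, or 12.8% and 5.13%, where 7.62% and 5.19% of all tested genes were. The median log2 fold change was 0.06. With any 1 library left out the median ran from -0.06 to 0.07. The counts also changed, as did those over all tested genes.

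Kindlin 3 is the form of blood cells, needed for integrin activation on leukocytes and platelets. Its gene fermt3b read 262 and 253 in Regenerating versus 40 and 7 in Non-Regenerating. The copy fermt3a, chosen after its values were seen, read 61 and 51 against 15 and 5. Both had all Regenerating values above all others, with log2 fold changes of 3.84 (SE 0.818, limma adjusted p = 0.198) and 2.53 (SE 0.67, adjusted p = 0.244). Kindlin 2, the form of endothelium and other adherent cells, had the opposite order. The gene fermt2 read 1874 and 1869 against 2420 and 2450, with near equal replicates (log2 fold change -0.38, SE 0.114, adjusted p = 0.295). The neutrophil sums given above were higher in both Regenerating libraries than in both others. So were the lymphoid sums, with or without ccr9a and cd3eap. The macrophage and monocyte sums, at 15058 and 15113 in Regenerating, were only slightly above the 14561 of Non-Regenerating replicate 1. The part of these cells in the fermt3 values was not tested.

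Zyxin, which gathers at focal adhesions under tension, had the smallest p of the list. The gene zyx read 1963 and 2083 in Regenerating versus 1119 and 1198 in Non-Regenerating. Replicates were close and the groups far apart (log2 fold change 0.80, SE 0.132, limma adjusted p = 0.164). Kank3, of a protein family that binds talin at the rim of adhesions, read 2033 and 2009 against 2769 and 2693 (log2 fold change -0.43, SE 0.112, adjusted p = 0.241). The talin gene with the highest level, tln1, differed little, at 6994 and 6179 against 7176 and 7137 (log2 fold change -0.12).

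A further set stood out mainly in Regenerating replicate 1, the library with the highest cardiomyocyte sum. Of the genes for filamin C, the actin crosslinker of muscle, flnca read 1234 and 222 in Regenerating versus 48 and 24 in Non-Regenerating. Genes chosen after their values were seen had the same shape: tns1a, for a tensin that binds the beta tail, read 676 and 181 against 53 and 57, and parvb, for an actin linker of adhesions, 646 and 120 against 73 and 66. In flnca, tns1a and parvb, Regenerating replicate 1 was several times as high as replicate 2. The other filamin C gene, flncb, also chosen after its values were seen, had the opposite order between groups. It read 1447 and 509 against 3169 and 2168, without overlap (log2 fold change -1.61, SE 0.518, limma adjusted p = 0.318). The part of heart muscle cells in these values was not tested. The other highest-level members were near equal, with tns1b at 8215 and 9718 against 9087 and 10873 and the tetraspanin gene cd81a at 7186 and 7755 against 7595 and 8322.

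Among extracellular ligands of integrins, both directions were present. A list of 103 names matched 82 genes, of which 73 were tested. With limma, 0 were called after adjustment over all genes. At an unadjusted p under 0.05, 9 were higher and 14 lower in Regenerating, or 12.3% and 19.2%, where 7.62% and 5.19% of all tested genes were. The median log2 fold change was -0.05, and -0.19 without Regenerating replicate 1. The counts also changed when single libraries were left out, as did those over all tested genes.

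Several ligands of alpha 4, alpha 5 and alpha V read higher in Regenerating. The fibronectin gene fn1a, chosen after its values were seen, read 4374 and 3503 in Regenerating versus 2354 and 1299 in Non-Regenerating. Emilin 1, an elastic fibre protein that binds alpha 4 and alpha 9 with beta 1, is encoded by emilin1b, which read 4525 and 4241 against 2060 and 2701. In both genes the groups did not overlap, with log2 fold changes of 1.16 (SE 0.307, limma adjusted p = 0.244) and 0.89 (SE 0.162, adjusted p = 0.177). The alpha V ligand gene mfge8a, also chosen after its values were seen, read 1337 and 2448 against 434 and 922. The Vcam1 genes did not share this order: vcam1a read 98 and 191 against 67 and 125, and vcam1b 459 and 342 against 995 and 464.

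Other ligands read lower in Regenerating. Laminin alpha 5, a ligand of alpha 6 pairs in vessel basement membranes, is encoded by lama5, which read 94 and 76 against 411 and 434. The matricellular gene ccn1l2, a relative of the alpha V ligand Ccn1, read 3570 and 3527 against 5824 and 5689, and the periostin gene postna 1691 and 1340 against 2984 and 3374. Replicates of these genes were close and the groups well apart, with log2 fold changes of -2.31 (SE 0.264, limma adjusted p = 0.153), -0.70 (SE 0.094, adjusted p = 0.16) and -1.08 (SE 0.164, adjusted p = 0.164). The periostin paralogue postnb, chosen after its values were seen, had the opposite order, at 1569 and 1839 against 1002 and 978. Its log2 fold change was 0.78 (SE 0.151, limma adjusted p = 0.187). Of the 4 TGF-beta genes in the list, whose latent products include substrates of alpha V pairs, 2 read lower, with tgfb1a at 215 and 66 against 503 and 356 and tgfb3 at 664 and 229 against 1908 and 934. The other two overlapped between the groups, with tgfb1b at 2137 and 2371 against 1612 and 2324 and tgfb2 at 87 and 23 against 84 and 25. These genes were chosen after their values were seen.

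Some ligands were near equal or differed modestly. The basement membrane collagen gene col4a1, a ligand of alpha 1 and alpha 2 pairs, read 10913 and 10479 in Regenerating versus 9441 and 11426 in Non-Regenerating, with a log2 fold change of 0.04. The collagen I gene col1a1b read 7733 and 7559 against 9507 and 9089 (log2 fold change -0.28, limma adjusted p = 0.281). Other collagen I genes, chosen after their values were seen, differed more, without overlap. The gene col1a1a read 4944 and 4892 against 8902 and 7382 (log2 fold change -0.72, limma adjusted p = 0.166). For col1a2 the values were 5576 and 5594 against 9155 and 8052 (log2 fold change -0.62, adjusted p = 0.164). The epicardial and fibroblast list, which holds these collagen I genes and postna, had lower sums in both Regenerating libraries, and its part in these values was not tested. At the other end, gpnmb, whose product carries an RGD motif, had the highest log2 fold change of the list, at 6.56 (SE 0.908, adjusted p = 0.161), and vwf, another RGD protein, had -1.19 (SE 0.239, adjusted p = 0.189).

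**Figure D5:**
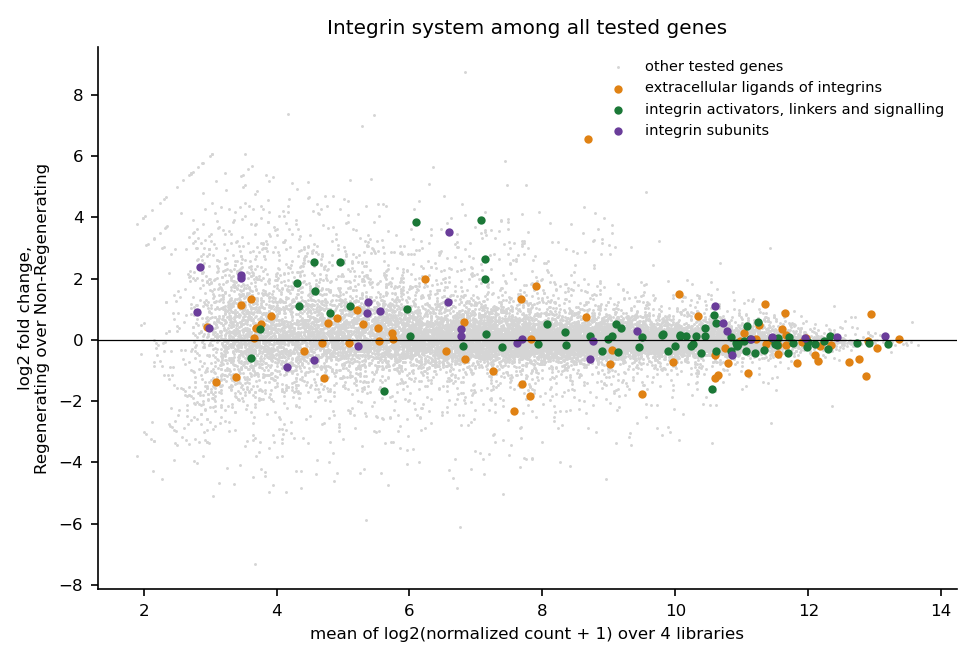
Log2 fold change, Regenerating over Non-Regenerating, against the mean of log2(normalized count + 1) over the 4 libraries for all 16928 tested genes, with 29 integrin subunits, 78 activator and linker genes and 73 ligand genes coloured. Most coloured points at high levels lie near 0, while itgae.2 at 3.53, fermt3b at 3.84, flnca at 3.91 and the ligand gpnmb at 6.56 stand above.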

How the data were processed

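Full-length cDNA was amplified from roughly 5 ng of RNA a library with a SMART-Seq v4 kit, per the labels' protocols. The submitters' processing notes name Trimmomatic 0.39, STAR 2.7.11a, Picard 3.1.1, featureCounts 2.0.4, DESeq2 1.36.0 and the build danRer11, with no role or order. The deposited table holds normalized counts, rounded by the authors, and recorded as a score because they are neither raw counts nor a rate. Reads per library are therefore not given directly.

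Genes with at least 10 normalized counts in at least 2 of the 4 libraries (16928 of 20306) were fitted as log2(value + 1) with limma 3.58.1 in R 4.3.3, with empirical Bayes moderation, a mean-variance trend and 2 residual degrees of freedom. P-values were Benjamini-Hochberg adjusted over all tested genes. Fold changes are on the log2(value + 1) scale, which understates those of scarce genes. The fit was tested on simulated data with independent libraries and variances drawn from its own fitted prior. That test cannot show how the fit behaves with paired or technical replicates. No gene lengths were used here, so levels are compared between libraries, not between genes. No sequences are printed. Subunits with values in full were the 8 with the highest means, up to 8 in each direction with the smallest p and the highest of each role, and listed genes were chosen by smallest p or highest mean, with additions said to be chosen after their values were seen. List names found on several rows were not used. Members and lists were chosen with earlier results of these data known. Alternatives were other filters, pseudocounts and scalings, no trend, a replicate block and leaving out each library.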

Additional observations from a re-analysis of the deposited data

How the results depend on the processing

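With 2 libraries per group, limits come first from the spread between libraries, and 12 alternatives were run. The number of all genes called was 1, 0 without the variance trend, 0 without any 1 library and 357 with the replicate block. Of 254 fits of 22 named subunits under the alternatives, 2 had an adjusted p under 0.05, both with the replicate block (itgae.2 at 0.0208 and itga4 at 0.0485, against 0.102 and 0.164 in the reported fit). Over its alternatives the adjusted p of itgae.2 otherwise ran from 0.0933 to 0.654 and that of itga4 from 0.135 to 0.657. Replicate numbers are shared by the groups, but no label says that they pair libraries, so the block is a hint from the data only. Differences between replicates 2 and 1 had the same sign in both groups for 21 of 29 subunits (72.4%) and for 65.1% of all tested genes, with a correlation across genes of 0.61 and 0.34. At an unadjusted p under 0.05 with the block, 7 of the 29 subunits were higher and 1 was lower. Over all 16928 tested genes, 2019 were higher and 1466 lower by that rule, more than in the reported fit. Of the 78 activators and linkers, 11 were higher and 11 lower with the block. With it, 10 ligands (ccn1l2, col1a1a, col1a2, col5a1, fn1a, fn1b, gpnmb, lama5, mfge8a and tgfb3) and 2 activators and linkers (flnca and zyx) had an adjusted p under 0.05, against 0 of either in the reported fit.

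When 1 library was left out, the subunits at an unadjusted p under 0.05 numbered 2 to 6 higher and 0 to 2 lower, with a median log2 fold change of 0.02 to 0.50. Activators and linkers numbered 5 to 9 higher and 0 to 3 lower (median -0.06 to 0.07), and ligands 7 to 12 higher and 6 to 16 lower (median -0.19 to -0.03). The counts over all tested genes changed in these fits too, so these counts alone cannot set the lists apart from all genes. Without the variance trend, 0 activators and linkers and 7 ligands were lower, against 4 and 14 in the reported fit. Over all 16928 tested genes, 794 were lower without the trend, against 878 in the reported fit. A filter of 50 moved the median of activators to -0.01 and of ligands to -0.16, and quantile scaling moved that of ligands to -0.13.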

Other observations

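The table's protein annotation names 3 further rows as integrins whose symbols fall outside the itga and itgb rule. The row with the symbol ITGB1 (ENSDARG00000109929, chromosome 2, 43537846 to 43545342, minus strand), annotated as an integrin beta chain and lying near itgb1b, read 1054 and 1044 in Regenerating versus 1018 and 1038 in Non-Regenerating. These are the smallest differences between replicates of the 3 rows, with a log2 fold change of 0.03 and a 95% interval of -0.33 to 0.39. The row si:dkey-32n7.4 (chromosome 12, 4114401 to 4145033), annotated as like alpha M and lying near itgam, read 1191 and 1171 against 1157 and 1322. The row zmp:0000001082 (chromosome 1, 59555936 to 59567685), annotated as alpha L, a beta 2 partner of leukocytes, read 391 and 1147 in Regenerating versus 378 and 1054 in Non-Regenerating. The library numbered 2 was the higher one in each group, by a log2 of 1.55 and 1.48. The group means were 769 ± 535 and 716 ± 478 (SD, n = 2 each). For this row the log2 fold change was 0.09, with a wide 95% interval of -1.68 to 1.85.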
